A study of Homo sapiens with 6 samples.

Results

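The ATP-dependent chromatin remodelers of the SWI/SNF, CHD, ISWI and INO80 families were followed through a stepwise transformation of human fibroblasts. They form a list of 41 genes. Each gene was read by the probe set that carries its symbol alone, or by the one with the highest mean signal where there were several. On that basis 40 of the 41 were measured, each by a single probe set, among 18417 genes in all. SMARCD2 was left out because its probe set also carries the symbol of another gene. Total RNA was hybridized to 6 Affymetrix Gene ST arrays, 2 for each of 3 cell lines, which the submitters describe as biological replicates. BJ are normal primary foreskin fibroblasts. BJEL are BJ cells immortalized with hTERT, the catalytic subunit of telomerase, and with the SV40 large T and small t antigens, and they were grown with G-418 and hygromycin. BJELM are BJEL cells transformed by a retrovirus that carries MYC fused to an estrogen receptor domain (MYC-ER), and they were grown with puromycin in addition and continuously with 4-hydroxytamoxifen, which activates the fusion. The additions to the medium cannot be told apart from the introduced genes, and each step is represented by a single derived line.

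Chromatin remodelers use ATP hydrolysis to slide, eject or restructure nucleosomes, or to exchange the histones within them. SWI/SNF complexes carry either SMARCA2 (BRM) or SMARCA4 (BRG1) as their motor, and the subunits around it define the forms called BAF, PBAF and non-canonical BAF. CHD enzymes combine a remodeling motor with chromodomains that can bind modified histones, ISWI enzymes space nucleosomes, and the INO80, SRCAP and TIP60-EP400 complexes share the ring-forming ATPases RUVBL1 and RUVBL2 and act on the histone variant H2A.Z. Several of these subunits are recurrently lost in human tumors, and MYC is known to bind members of the TIP60-EP400 and SWI/SNF complexes.

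Values are log2 signals from RMA, given in the order replicate 1, replicate 2. Differences are log2 fold changes ± SE from limma with n = 2 arrays per cell line, and p-values were adjusted over all 18417 genes. A gene is said to have risen or fallen where the adjusted p was under 0.05, and a change of at least 2-fold is named as such. Array medians lay between 6.37 and 6.46. TERT was measured at 7.77 and 7.88 in BJ, 10.71 and 10.97 in BJEL, and 10.84 and 10.78 on the arrays labelled BJELM, higher in both derived lines as labelled. MYC was measured at 9.47 and 9.61 in BJ, 10.22 and 10.12 in BJEL, and 9.57 and 8.90 on the arrays labelled BJELM. The study reported overexpression of MYC-ER protein at the tumorigenic step by western blot, and it also measured MYC by RT-qPCR. On this probe set the signal of MYC in BJELM was below that of BJEL, by -0.93 ± 0.21 (adjusted p = 0.0444), which goes against the introduced gene. This adjusted p ranged from 0.00947 to 0.198 when 1 array was left out at a time, and the share of the probe set that the MYC-ER transcript contains was not examined here. All 10 listed fibroblast markers were at or above the median gene level of 7.26, while 0 of 4 endothelial, 0 of 3 leukocyte, 0 of 4 neural, 1 of 5 epithelial and 1 of 4 striated muscle markers were.

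The remodelers moved mostly by less than 2-fold. In BJEL against BJ, 0 of 40 passed limma's adjusted p with at least a 2-fold change, where 2.89% of all genes were called higher and 2.29% lower. At the adjusted p alone 10 of 40 rose (25%, against 10.4% of all genes) and 1 fell (2.5%, against 7.13%). In the same comparison 21 of 40 had an unadjusted p under 0.05, and the methods' test for unequal variances called 0 at 2-fold, 9 at an unadjusted p alone and 0 after adjustment. Neither rule was counted over all genes, so these counts have no share to be set against. The median change of the 40 genes was 0.25, against -0.017 over all genes, and 31 of the 40 were above 0, against 46.5% of all genes.

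In BJELM against BJ, 4 of 40 rose by at least 2-fold (10.0%, against 4.09% of all genes) and 1 fell by as much (2.5%, against 4.7%). At the adjusted p alone 18 rose (45.0%, against 15.1%) and 4 fell (10.0%, against 13.1%). With only genes at or above the median level tested, 17 of 38 remodelers rose and 4 fell, and 4239 genes passed. The median change was 0.28, against 0.011 over all genes, and 27 of the 40 were above 0, against 52.1% of all genes. Both of these comparisons use the same BJ arrays, so they are not independent of each other. In BJELM against BJEL, 0 of 40 passed limma's adjusted p with a 2-fold change, where 0.923% of all genes were called higher and 1.76% lower. Here 3 of 40 rose at the adjusted p alone (7.5%, against 4.53%) and 2 fell (5.0%, against 6.28%). With only genes at or above the median level tested, 2 of 38 rose and 2 fell, and 1647 genes passed. An unadjusted p under 0.05 was found for 15 of 40, and the methods' test for unequal variances called 0 at 2-fold, 4 at an unadjusted p alone and 0 after adjustment. These rules, too, were not counted over all genes. The median change was -0.02, against 0.029 over all genes, and its sign turned under other scalings of the arrays, to 0.018 with median centring and 0.036 with quantile normalization. The plot of all members by array shows where the changes sat.

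**Figure D1:**
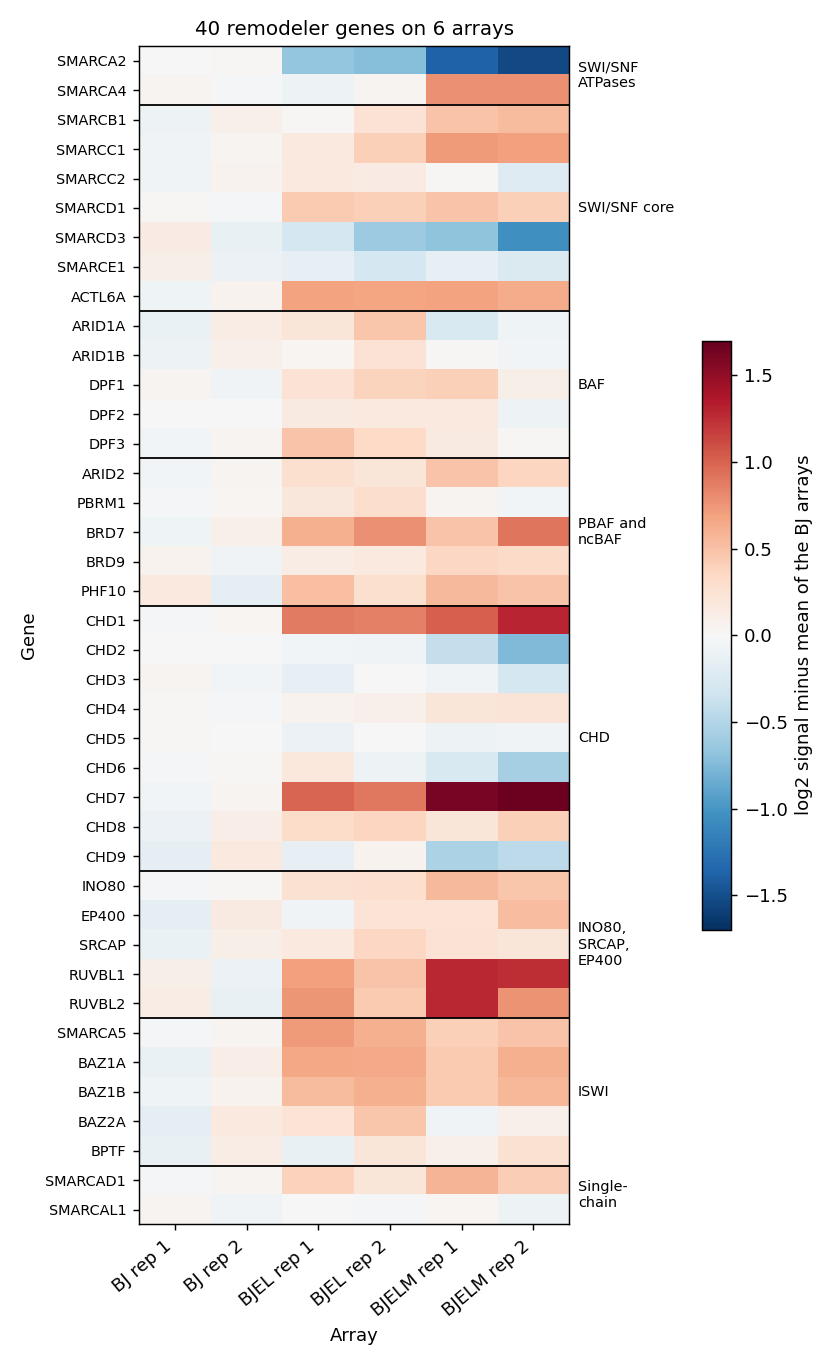
Log2 signal of each of the 40 measured remodeler genes (rows, grouped by complex) on each of the 6 arrays (columns), as the difference from the mean of the BJ arrays on the color scale. SMARCA2 is the deepest blue row and CHD7 the deepest red row, and both already differ from BJ on the BJEL arrays.

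Several of these calls were lost when 1 array was left out. Leaving out an array also lowers the degrees of freedom, so a call can be lost while its change stays the same. The change of SMARCD1 in BJEL against BJ was 0.41 to 0.44 in the fits that lost its call, and 0.43 on all arrays. That of BRD9 in BJELM against BJ was 0.33 with and without a BJEL array. When each of the 6 arrays was left out in turn, 5 of the 11 calls in BJEL against BJ passed the adjusted p every time, for SMARCA2, SMARCA5, ACTL6A, CHD1 and CHD7. In BJELM against BJ 8 of 22 did so, for SMARCA2, SMARCA4, SMARCC1, ACTL6A, CHD1, CHD7, INO80 and RUVBL1, and in BJELM against BJEL 1 of 5 did so, for SMARCA4. The arrays whose removal lost the other calls are named beside each gene.

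The fibroblast markers moved in the same comparisons. Of the 10, 6 fell in BJEL against BJ and 8 in BJELM against BJ by at least 2-fold, and their summed signal on the log2 scale was 15.55 to 15.66 in BJ, 14.61 to 14.63 in BJEL and 14.35 to 14.67 in BJELM. None of the markers of other cell types was called with at least a 2-fold change. Calls at the adjusted p alone were not counted for the markers. In bulk RNA, fewer cells of a type and less RNA per cell cannot be told apart. The part of the marker change in the remodeler values was not tested.

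The ATPases that drive SWI/SNF complexes differed from each other in direction. SMARCA2 (Entrez 6595, probe set 8154059, chromosome 9), the BRM motor, fell at both steps. Its signal was 8.90 and 8.93 in BJ, 8.25 and 8.19 in BJEL, and 7.53 and 7.37 in BJELM. The 3 cell lines did not overlap, and the order ran from BJ down to BJELM. Relative to BJ, SMARCA2 fell by 0.69 ± 0.092 in BJEL (adjusted p = 0.00529) and fell by 1.46 ± 0.092 in BJELM (adjusted p = 0.000304), a 2.75-fold decrease. From BJEL to BJELM it fell by 0.77 ± 0.092 (adjusted p = 0.00727), with an adjusted p of 0.0553 without BJEL replicate 1.

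SMARCA4 (Entrez 6597, probe set 8025788, chromosome 19), the alternative BRG1 motor, was measured at 9.42 and 9.35 in BJ, 9.30 and 9.43 in BJEL, and 10.16 and 10.16 in BJELM. BJ and BJEL overlapped, and both BJELM arrays lay above them. The change in BJEL against BJ was -0.02 ± 0.088, with a 95% interval from -0.23 to 0.20 (adjusted p = 0.922). SMARCA4 rose by 0.77 ± 0.088 in BJELM against BJ (adjusted p = 0.00171) and by 0.79 ± 0.088 against BJEL (adjusted p = 0.00587), or 1.73-fold. The signals of different probe sets are not comparable, so the balance of BRM and BRG1 within a cell line cannot be read from these values.

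Because SMARCA2 and SMARCA4 encode alternative motors of 1 family of complexes and moved apart, the bases upstream of their first annotated starts are shown from RefSeq promoter windows on GRCh38.p14, with each CG dinucleotide in capitals. They lie at chr9:2015097-2015346 and chr19:10960780-10961029, both on the plus strand, and read 5′ to 3′ up to the base before the start.
SMARCA2: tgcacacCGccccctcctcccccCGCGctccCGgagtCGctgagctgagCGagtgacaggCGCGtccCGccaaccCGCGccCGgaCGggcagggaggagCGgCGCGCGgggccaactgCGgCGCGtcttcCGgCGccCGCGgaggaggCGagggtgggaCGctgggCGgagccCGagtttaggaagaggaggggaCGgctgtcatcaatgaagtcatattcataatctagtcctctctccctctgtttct
SMARCA4: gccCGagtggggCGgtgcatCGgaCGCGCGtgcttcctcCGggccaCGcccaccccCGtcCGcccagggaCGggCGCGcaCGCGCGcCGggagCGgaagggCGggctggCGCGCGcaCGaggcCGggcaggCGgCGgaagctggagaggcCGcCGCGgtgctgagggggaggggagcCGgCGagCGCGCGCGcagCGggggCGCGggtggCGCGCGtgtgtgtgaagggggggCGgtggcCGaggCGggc
The SMARCA2 stretch held 29 CG dinucleotides in 250 bases and that of SMARCA4 held 44, where the median over 35116 promoter windows was 11 (quartiles 3 and 23). In the 100 bases nearest the start the counts were 4 and 18. RefSeq gives SMARCA2 4 such windows and SMARCA4 2, and these counts describe the first of each. Of the 4 genes that rose by at least 2-fold in BJELM against BJ, CHD7 was not counted. The first windows of the others, CHD1, RUVBL1 and RUVBL2, held 36, 8 and 23 in 250 bases. A link between such counts and the changes was not tested, and methylation was not measured on these arrays.

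Of the shared core subunits of SWI/SNF, 2 of 7 rose in BJEL against BJ (10.4% of all genes), and in BJELM against BJ 4 rose (15.1%) and 1 fell (13.1%). ACTL6A (BAF53A), the actin-related subunit of proliferating and progenitor cells, was measured at 8.59 and 8.72 in BJ, 9.34 and 9.33 in BJEL, and 9.35 and 9.29 in BJELM. The step lay between BJ and BJEL, and BJEL and BJELM overlapped. ACTL6A rose by 0.68 ± 0.087 in BJEL and by 0.66 ± 0.087 in BJELM, both relative to BJ (adjusted p = 0.0047 and 0.00286). SMARCD1 (BAF60A), which links the complexes to transcription factors, rose by 0.43 ± 0.081 in BJEL against BJ (adjusted p = 0.0178) and by 0.44 ± 0.081 in BJELM against BJ (adjusted p = 0.00974). Its adjusted p for BJEL was 0.0936 and 0.092 without BJ replicates 1 and 2, and 0.105 and 0.0735 without BJEL replicates 1 and 2. For BJELM it was 0.0534 and 0.0587 without BJ replicates 1 and 2.

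SMARCD3 (BAF60C), a paralog of SMARCD1 known from heart and muscle, went the other way. It was measured at 8.22 and 7.95 in BJ, 7.78 and 7.46 in BJEL, and 7.40 and 7.04 in BJELM. BJ and BJELM did not overlap, and BJEL lay between them. SMARCD3 fell by 0.86 ± 0.18 in BJELM against BJ (adjusted p = 0.0135), while the change in BJEL against BJ was -0.46 ± 0.18 (adjusted p = 0.136). Without BJELM replicate 1 the fall in BJELM passed 2-fold, at -1.04 (adjusted p = 0.0144). It missed the adjusted p without BJ replicate 1, at 0.082, and without BJELM replicate 2, at 0.0543.

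SMARCC1 (BAF155), a scaffold subunit, was measured at 10.07 and 10.18 in BJ, 10.30 and 10.54 in BJEL, and 10.86 and 10.83 in BJELM. All 3 cell lines were separate on it. It rose by 0.71 ± 0.11 in BJELM against BJ (adjusted p = 0.00494), and the change in BJEL against BJ was 0.29 ± 0.11 (adjusted p = 0.133). From BJEL to BJELM the change was 0.42 ± 0.11 (adjusted p = 0.0647), which passed the threshold after quantile normalization, at 0.49 (adjusted p = 0.0469). SMARCB1 (SNF5), the subunit lost in rhabdoid tumors, rose by 0.51 ± 0.11 in BJELM against BJ (adjusted p = 0.0178), with an adjusted p of 0.109 without BJ replicate 1 and 0.0724 without BJELM replicate 2. The changes of SMARCC2, the paralog of SMARCC1, and of SMARCE1 lay between -0.25 and 0.15 over the 3 comparisons, and none passed the test.

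Of the 5 subunits that define the canonical BAF form 1 rose in BJEL against BJ, where 10.4% of all genes did. In BJELM against BJ 15.1% of all genes rose and 13.1% fell. Between BJELM and BJ 0 of the 5 (ARID1A, ARID1B, DPF1, DPF2 and DPF3) passed limma's adjusted p, and 0 had an unadjusted p under 0.05, with changes from -0.17 to 0.26. ARID1A, the DNA-binding subunit often mutated in carcinomas, was measured at 9.73 and 9.96 in BJ, 10.04 and 10.31 in BJEL, and 9.58 and 9.77 in BJELM. Its BJEL arrays were the highest and did not overlap the others. The change from BJEL to BJELM was -0.50 ± 0.14, with a 95% interval from -0.84 to -0.16 (adjusted p = 0.0767). DPF3, a subunit that reads histone acetylation, rose by 0.41 ± 0.099 in BJEL against BJ (adjusted p = 0.0395), while the change in BJELM against BJ was 0.08 ± 0.099 (adjusted p = 0.665). The adjusted p of DPF3 in BJEL was 0.203 and 0.105 without BJ replicates 1 and 2, 0.201 and 0.0777 without BJEL replicates 1 and 2, and 0.064 with an intensity trend and a robust prior.

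Among subunits of PBAF and non-canonical BAF, 4 of 5 rose in BJELM against BJ (15.1% of all genes) and 1 of 5 in BJEL (10.4%). BRD7, a bromodomain subunit of PBAF, was measured at 8.26 and 8.41 in BJ, 8.94 and 9.11 in BJEL, and 8.82 and 9.24 in BJELM. Both derived lines lay above BJ and overlapped each other. BRD7 rose by 0.69 ± 0.16 in BJEL and by 0.70 ± 0.16 in BJELM, both relative to BJ (adjusted p = 0.0301 and 0.0195). Its adjusted p in BJEL was 0.159 and 0.0807 without BJ replicates 1 and 2, 0.0931 and 0.133 without BJEL replicates 1 and 2, and 0.0844 after quantile normalization. In BJELM it was 0.109 and 0.0548 without BJ replicates 1 and 2, and 0.0533 without BJELM replicate 2.

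ARID2, the DNA-binding subunit particular to PBAF, rose by 0.41 ± 0.09 in BJELM against BJ (adjusted p = 0.0174). Its adjusted p was 0.109 and 0.0553 without BJ replicates 1 and 2, and 0.0737 without BJELM replicate 1. PHF10, a PBAF subunit with plant homeodomain fingers, rose by 0.51 ± 0.14 (adjusted p = 0.0363), with an adjusted p of 0.163 without BJ replicate 2, and of 0.12 and 0.091 without BJELM replicates 1 and 2. BRD9, the bromodomain subunit of non-canonical BAF, rose by 0.33 ± 0.086 (adjusted p = 0.0336). That call was lost with any of the arrays left out, with an adjusted p from 0.0642 without a BJEL array to 0.174 without BJ replicate 2. PBRM1, the polybromo subunit lost in clear cell renal cancer, was measured at 9.70 and 9.76 in BJ, 9.92 and 10.03 in BJEL, and 9.77 and 9.68 in BJELM, with changes of 0.24 ± 0.09 in BJEL (adjusted p = 0.129) and -0.01 ± 0.09 in BJELM (adjusted p = 0.961), each against BJ.

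The CHD family held the largest rise of the 40 genes and also falls. Of 9 members, 2 rose in BJEL against BJ, where 10.4% of all genes did. In BJELM against BJ 2 of 9 rose, both by at least 2-fold, and 2 fell, where 15.1% of all genes rose and 13.1% fell. CHD7 (Entrez 55636, probe set 8146579), the enzyme mutated in CHARGE syndrome, was measured at 5.67 and 5.75 in BJ, 6.70 and 6.60 in BJEL, and 7.32 and 7.38 in BJELM. The cell lines did not overlap and rose in order, from the low end of the array's range: its mean over the arrays was below the median gene level of 7.26. CHD7 rose by 0.94 ± 0.088 in BJEL and by 1.64 ± 0.088 in BJELM, both relative to BJ (adjusted p = 0.00183 and 0.000201), the latter 3.11-fold. From BJEL to BJELM it rose by 0.70 ± 0.088 (adjusted p = 0.00797), with an adjusted p of 0.0509 without BJEL replicate 2. A filter on dim genes removes CHD7 from the test.

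CHD1 (Entrez 1105, probe set 8113305, chromosome 5), which binds trimethylated lysine of histone H3 at active genes, was measured at 8.48 and 8.54 in BJ, 9.39 and 9.37 in BJEL, and 9.53 and 9.81 in BJELM. Most of its difference lay between BJ and BJEL. CHD1 rose by 0.87 ± 0.11 in BJEL and by 1.16 ± 0.11 in BJELM, both relative to BJ (adjusted p = 0.00465 and 0.00102), the latter 2.23-fold. The change from BJEL to BJELM was 0.29 ± 0.11, with a 95% interval from 0.01 to 0.56 (adjusted p = 0.177).

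CHD2, the paralog of CHD1, did not follow it. It was measured at 9.07 and 9.06 in BJ, 9.03 and 9.01 in BJEL, and 8.66 and 8.32 in BJELM. The BJELM arrays lay below the others, and the BJEL arrays lay just below those of BJ. CHD2 fell by 0.57 ± 0.12 against BJ (adjusted p = 0.0172) and fell by 0.52 ± 0.12 against BJEL (adjusted p = 0.0494), and the change in BJEL against BJ was -0.05 ± 0.12 (adjusted p = 0.846). Against BJ its adjusted p was 0.0872 and 0.0717 without BJ replicates 1 and 2. Against BJEL it was 0.0921 without either BJ array, 0.204 and 0.161 without BJEL replicates 1 and 2, 0.127 without BJELM replicate 2, and 0.0627 with an intensity trend and a robust prior.

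CHD9, a relative of CHD7, was measured at 9.30 and 9.62 in BJ, 9.32 and 9.52 in BJEL, and 8.92 and 9.01 in BJELM. BJ and BJEL overlapped, and the BJELM arrays lay below both. CHD9 fell by 0.49 ± 0.13 in BJELM against BJ (adjusted p = 0.0392). Its adjusted p was 0.173 without BJ replicate 2, 0.0535 without either BJEL array, 0.134 and 0.0869 without BJELM replicates 1 and 2, 0.0708 with median centring and 0.0578 after quantile normalization. CHD6, of the same branch, showed -0.41 ± 0.14 in BJELM against BJ (adjusted p = 0.0801), which passed the threshold after quantile normalization, at -0.42 (adjusted p = 0.0275), and without BJELM replicate 1, at -0.55 (adjusted p = 0.0455). CHD3 and CHD4, the motors of the NuRD deacetylase complex, and CHD5, a mostly neural member, had changes from -0.18 to 0.21 over the 3 comparisons, and CHD8, which binds beta-catenin, from -0.04 to 0.33. None of these 4 passed the test. CHD5 was below the median gene level on all arrays, at 6.25 to 6.37.

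**Figure D2:**
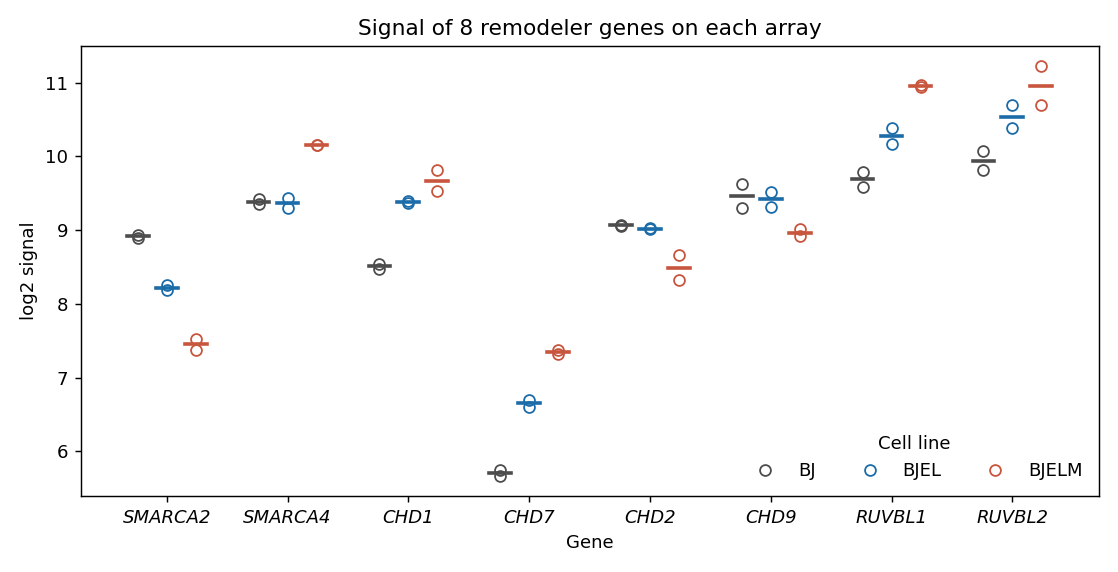
Log2 signal on each array (open circles) with the mean of each cell line (bars) for 8 remodeler genes. SMARCA2 steps down and CHD7 and RUVBL1 step up across BJ, BJEL and BJELM without overlap, whereas SMARCA4 has its BJELM arrays above, and CHD2 and CHD9 have theirs below, those of both other lines.

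RUVBL1 and RUVBL2 (pontin and reptin), the ring ATPases shared by the INO80, SRCAP and TIP60-EP400 complexes and known to bind MYC, both rose by at least 2-fold in BJELM against BJ. RUVBL1 (Entrez 8607, probe set 8090448, chromosome 3) was measured at 9.79 and 9.59 in BJ, 10.39 and 10.17 in BJEL, and 10.97 and 10.94 in BJELM. The 3 cell lines rose in order without overlap. RUVBL1 rose by 0.59 ± 0.12 in BJEL and by 1.26 ± 0.12 in BJELM, both relative to BJ (adjusted p = 0.0189 and 0.000842), the latter 2.4-fold. It rose by 0.67 ± 0.12 from BJEL to BJELM (adjusted p = 0.0192). The adjusted p in BJEL against BJ was 0.0516 and 0.0945 without BJ replicates 1 and 2, and 0.106 without BJEL replicate 1. That from BJEL to BJELM was 0.0552 and 0.0892 without BJEL replicates 1 and 2, and 0.0607 and 0.0686 without BJELM replicates 1 and 2.

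RUVBL2 (Entrez 10856, probe set 8030113, chromosome 19) was measured at 10.07 and 9.81 in BJ, 10.69 and 10.39 in BJEL, and 11.22 and 10.70 in BJELM. Its replicates differed more than those of RUVBL1, and BJELM replicate 2 lay just above BJEL replicate 1. RUVBL2 rose by 1.02 ± 0.2 in BJELM against BJ (adjusted p = 0.0128), or 2.03-fold. Without BJELM replicate 1 the change was 0.76 (adjusted p = 0.0343), under 2-fold, and without BJ replicate 2 it was 0.89 (adjusted p = 0.0686). In BJEL against BJ the change was 0.60 ± 0.2 (adjusted p = 0.102), which became 0.0462 without either BJELM array, and from BJEL to BJELM it was 0.42 ± 0.2 (adjusted p = 0.269).

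Of the motors of these complexes, INO80 was measured at 8.77 and 8.82 in BJ, 9.06 and 9.08 in BJEL, and 9.35 and 9.27 in BJELM, in separate steps. INO80 rose by 0.51 ± 0.082 in BJELM against BJ (adjusted p = 0.00554), and the change in BJEL against BJ was 0.27 ± 0.082 (adjusted p = 0.0712). SRCAP, which loads H2A.Z, and EP400 showed 0.23 ± 0.11 (adjusted p = 0.205) and 0.38 ± 0.16 (adjusted p = 0.154) in BJELM against BJ. Their 95% intervals ran from -0.04 to 0.50 and from -0.02 to 0.78.

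Of the 5 ISWI members, the same 3 rose in BJEL (10.4% of all genes) and in BJELM (15.1%), each against BJ. SMARCA5 (SNF2H), the ISWI motor, was measured at 9.96 and 10.03 in BJ, 10.72 and 10.60 in BJEL, and 10.40 and 10.47 in BJELM. The BJEL arrays were the highest. SMARCA5 rose by 0.67 ± 0.088 in BJEL and by 0.45 ± 0.088 in BJELM, both relative to BJ (adjusted p = 0.00517 and 0.0125). The latter had an adjusted p of 0.0835 without BJ replicate 1 and 0.0559 without BJELM replicate 2. Between BJEL and BJELM the change was -0.22 ± 0.088 (adjusted p = 0.185).

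BAZ1A (ACF1) and BAZ1B (WSTF) are partners of SMARCA5 in nucleosome spacing and at replicating DNA. BAZ1A rose by 0.65 ± 0.11 in BJEL and by 0.52 ± 0.11 in BJELM, both relative to BJ (adjusted p = 0.0111 and 0.0148). BAZ1B rose by 0.57 ± 0.092 and 0.51 ± 0.092 in the same comparisons (adjusted p = 0.0103 and 0.00915). All BJEL and BJELM arrays lay above the BJ arrays for both genes. In BJEL the adjusted p of BAZ1A was 0.0698 without BJ replicate 1, and 0.0707 and 0.0552 without BJEL replicates 1 and 2, and that of BAZ1B was 0.0752, 0.0569 and 0.06 without the same arrays. In BJELM it was 0.089 for BAZ1A and 0.0658 for BAZ1B without BJ replicate 1, and 0.0666 for BAZ1A without BJELM replicate 2. BAZ2A, of the ribosomal DNA silencing complex NoRC, and BPTF, the large subunit of NURF, had changes between -0.34 and 0.34 over the 3 comparisons and did not pass the test.

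Of the enzymes that act without a large complex, SMARCAD1, which works at replicating and broken DNA, rose by 0.50 ± 0.11 in BJELM against BJ (adjusted p = 0.0174). Its adjusted p was 0.1 and 0.0614 without BJ replicates 1 and 2, and 0.0728 without BJELM replicate 1. SMARCAL1, which reanneals DNA at stalled replication forks, was measured between 8.89 and 9.02 on all arrays. Its change in BJELM against BJ was -0.02 ± 0.089, with a 95% interval from -0.24 to 0.19.

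**Figure D3:**
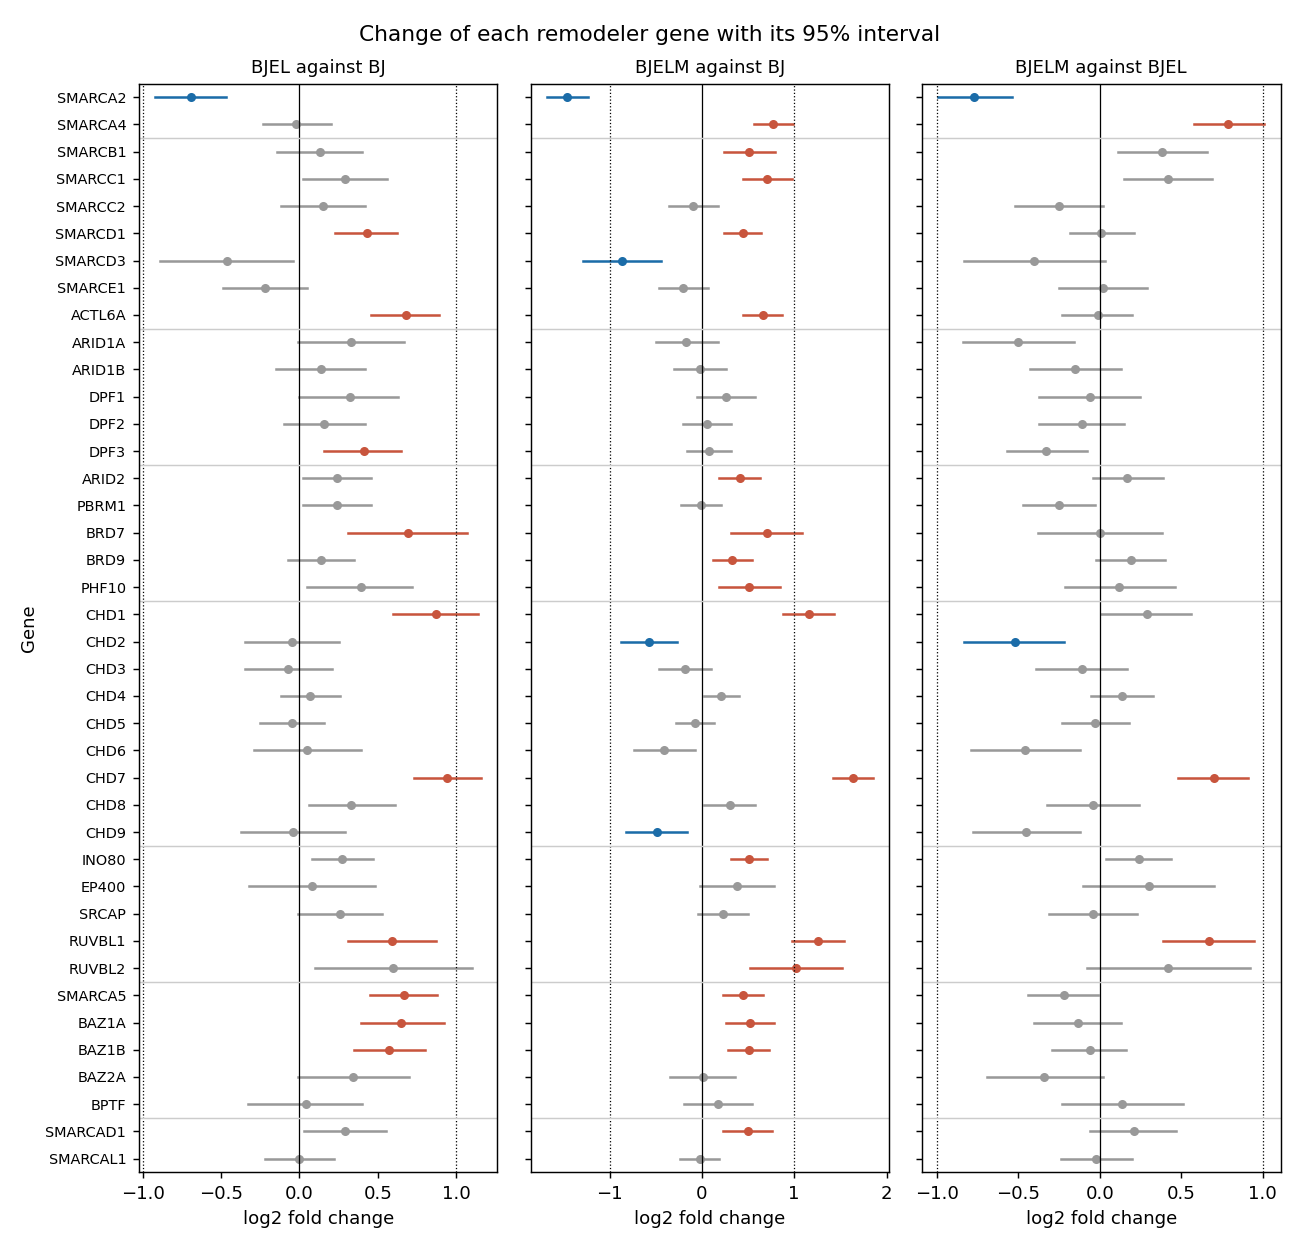
Log2 fold change of each of the 40 genes (points) with its 95% interval from limma (lines) in the 3 comparisons, grouped by complex. Red and blue mark genes that rose or fell at an adjusted p under 0.05, gray the rest, and the dotted lines mark a 2-fold change. Points past a dotted line appear only in BJELM against BJ.

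Promoters were searched because the introduced proteins act through sequence-specific factors: MYC binds the E-box CACGTG, and large T frees E2F, whose sites were searched as TTTCCCGC and TTTGGCGC, both on either strand. RefSeq windows on GRCh38.p14, from 250 bases before to 50 after each start, were found for 31 of the 40 genes (51 windows). CACGTG was in 2 of these windows, of CHD9 and PBRM1, and in 7.26% of all 35116 windows. TTTCCCGC was in 1, of BRD7, and in 1.63% of all, and TTTGGCGC in 0, and in 0.652% of all. The matches are shown in capitals with their flanks, none extending past the start, for PBRM1 at chr3:52685998-52686083 and BRD7 at chr16:50368989-50369053, both on the minus strand, and for CHD9 at chr16:53054837-53054922 on the plus strand.
PBRM1: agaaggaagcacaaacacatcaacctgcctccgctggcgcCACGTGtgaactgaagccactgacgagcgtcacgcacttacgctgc
CHD9: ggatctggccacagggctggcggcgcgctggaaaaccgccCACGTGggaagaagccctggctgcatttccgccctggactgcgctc
BRD7: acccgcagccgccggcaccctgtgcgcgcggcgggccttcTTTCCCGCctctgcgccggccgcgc
The matches begin at -130 in PBRM1, -114 in CHD9 and -25 in BRD7 relative to the start. Of the genes with an E-box here, PBRM1 did not pass the test and CHD9 fell in BJELM against BJ, and BRD7 rose in both derived lines. A match is a description of the letters and not a bound site.

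A further 71 genes of the same complexes and of related enzymes were listed, and 67 of them were measured. In BJEL against BJ 17 rose and 1 fell, 4 of the rises by at least 2-fold, with a median change of 0.25. In BJELM against BJ 28 rose and 4 fell, 9 of the rises by at least 2-fold, with a median of 0.33. In BJELM against BJEL 5 rose and 2 fell, 0 by 2-fold, with a median of -0.01. Of all genes, 10.4% rose and 7.13% fell in the first of these comparisons, 15.1% and 13.1% in the next, and 4.53% and 6.28% in the last.

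Of the SNF2-like enzymes outside the main complexes, 7 of 10 rose in BJEL and 8 of 10 in BJELM, each against BJ, where 10.4% and 15.1% of all genes rose. ERCC6L (PICH), a translocase on mitotic DNA bridges, was measured at 5.63 and 5.80 in BJ, 7.37 and 7.27 in BJEL, and 7.28 and 7.34 in BJELM. HELLS (LSH), which supports DNA methylation at repeats, was measured at 7.08 and 7.34 in BJ, 8.61 and 8.80 in BJEL, and 8.76 and 8.66 in BJELM. For both, the derived lines overlapped each other and lay above BJ. Relative to BJ, ERCC6L rose by 1.61 ± 0.097 in BJEL and 1.59 ± 0.097 in BJELM (adjusted p = 0.00066 and 0.000275), and HELLS rose 2.81-fold (adjusted p = 0.00134) and 2.82-fold (adjusted p = 0.000629). The recombination translocases RAD54B and RAD54L rose by 1.28 ± 0.17 (adjusted p = 0.00541) and 1.23 ± 0.17 (adjusted p = 0.00544) in BJEL, and by 1.25 and 1.19 in BJELM. Without BJ replicate 1 the changes of RAD54L were under 2-fold, at 0.97 (adjusted p = 0.0131) and 0.93 (adjusted p = 0.00782).

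In the other lists the calls at 2-fold lay in BJELM against BJ, but the genes so called were already higher in BJEL than in BJ. YEATS4 changed there by 1.38 ± 0.38 (adjusted p = 0.0582). POLE3 rose by 0.89 (adjusted p = 0.0196), UCHL5 by 0.78 (adjusted p = 0.0452) and ACTR5 by 0.56 (adjusted p = 0.00916). These calls were lost in several fits that left out 1 array, in which ACTR5 changed by 0.54 to 0.58. POLE3 and UCHL5 changed by 0.66 and 0.53 without BJ replicate 1, and by 1.12 and 1.03 without BJ replicate 2. The call of UCHL5 was also lost with median centring (adjusted p = 0.0515) and with quantile normalization, at 0.69 (adjusted p = 0.0987). From BJEL to BJELM YEATS4, POLE3 and UCHL5 changed by 0.26, 0.34 and 0.27 (adjusted p = 0.74, 0.301 and 0.471). ACTR5 rose by 0.50 (adjusted p = 0.0204), a call lost in several fits that left out 1 array, with changes of 0.44 to 0.52. Of 10 further INO80 subunits 4 rose in BJELM against BJ (15.1% of all genes). They included the actin-related ACTR5, by 1.06 ± 0.088 (adjusted p = 0.000637), and the deubiquitinase UCHL5, by 1.05 ± 0.2 (adjusted p = 0.0107). The change of UCHL5 was under 2-fold without BJ replicate 1, at 0.80, and without BJELM replicate 2, at 0.87, and that of ACTR5 was at the edge of 2-fold without BJELM replicate 2 (adjusted p = 0.00382). Of 14 further SRCAP and TIP60-EP400 subunits 4 rose in the same comparison (15.1% of all genes). They included YEATS4 (GAS41), a reader of acetylated histones, by 1.64 ± 0.38 (adjusted p = 0.0225). The BJ arrays for YEATS4, at 7.42 and 8.48, lay farther apart than those of any of the 40 remodelers, and its adjusted p was 0.0755 without BJ replicate 1 and 0.0956 without BJELM replicate 2.

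Of 7 further ISWI genes 2 rose and 2 fell in BJELM against BJ, where 15.1% of all genes rose and 13.1% fell. The histone-fold protein POLE3 rose by 1.23 ± 0.18 (adjusted p = 0.00374), and without BJ replicate 1 its change was at the edge of 2-fold (adjusted p = 0.0163). SMARCA1 (SNF2L), the other ISWI motor, was measured at 9.83 and 9.74 in BJ, 9.70 and 9.86 in BJEL, and 9.25 and 8.74 in BJELM, so that the BJELM arrays lay apart. SMARCA1 fell by 0.79 ± 0.17 (adjusted p = 0.0172), with an adjusted p of 0.0916 and 0.0607 without BJ replicates 1 and 2. BAZ2B, a bromodomain paralog of BAZ2A, fell by 0.86 ± 0.14 (adjusted p = 0.00608). Both falls passed 2-fold without BJELM replicate 1, at -1.04. NuRD subunits numbered 5 rises and 1 fall of 12, all under 2-fold, and further SWI/SNF subunits 2 rises and 1 fall of 9. The shares over all genes were again 15.1% and 13.1%. Histone variants with their exchange chaperones numbered 3 rises of 5 (15.1% of all genes). Among them was H2AZ1, the substrate of SRCAP and INO80, by 0.52 (adjusted p = 0.0476). The adjusted p of H2AZ1 was 0.234 without BJ replicate 1, 0.0631 without either BJEL array and 0.185 without BJELM replicate 2.

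**Figure D4:**
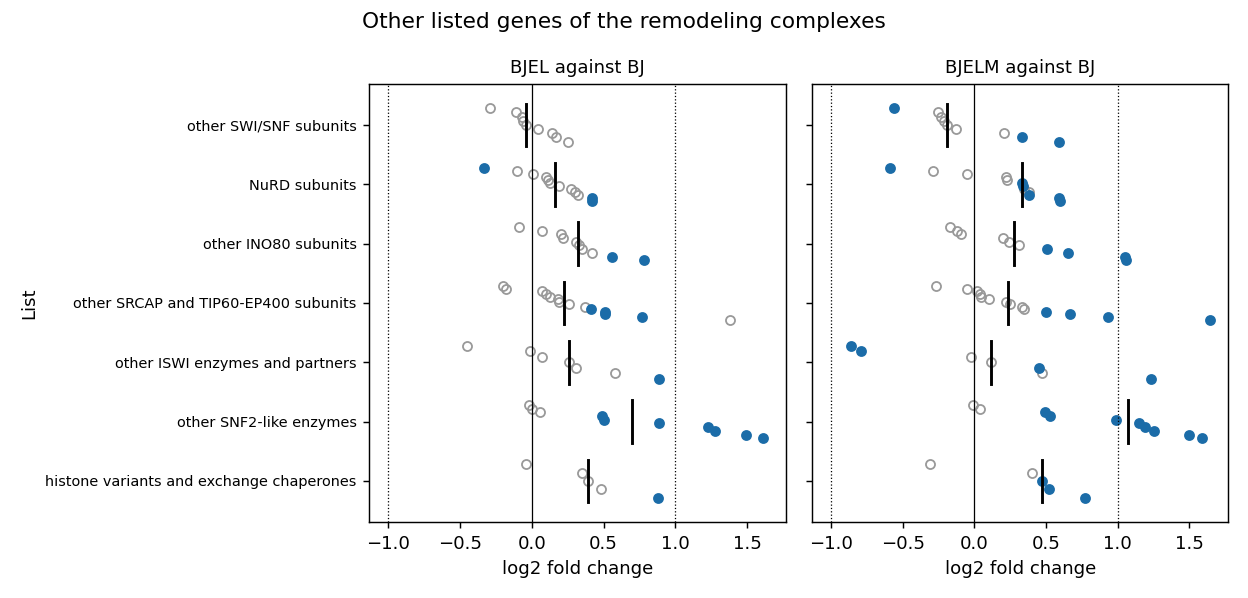
Log2 fold change of the 67 other measured genes of the remodeling complexes, by list, in BJEL and BJELM against BJ. Each circle is a gene, filled where the adjusted p was under 0.05, the black bars are list medians and the dotted lines a 2-fold change. The list of SNF2-like enzymes has the highest median in both comparisons, 0.70 and 1.07.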

How the data were processed

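The deposited table holds 33297 probe sets on 6 arrays, with 0 missing values. The authors made its log2 signals with RMA, which corrects background, equalizes the arrays' distributions and summarizes probes. The submitters' processing notes name Affymetrix Expression Console, version 1.3.1. The table carries no detection calls, and an array has no count depth, so the number of arrays limits the precision. By the platform annotation, whose build is not given in the sources used here, 19460 probe sets had 1 symbol, 1754 several, and 12083 were unlisted. Each gene took its single-symbol probe set with the highest mean (18417 genes, 18389 matched to RefSeq by Entrez ID).

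Cell lines were compared by limma 3.58.1 (R 4.3.3), with a mean per line over all 6 arrays, two-sided moderated tests (3 residual and 3.13 prior degrees of freedom) and Benjamini-Hochberg adjustment over 18417 genes. The procedure was tested on simulated data. The study's test for unequal variances was run in its plain form as an alternative. Others left out each array, fitted only the 4 arrays compared, added a replicate block, rescaled the arrays, changed the prior, filtered dim genes, averaged a gene's probe sets or lowered the fold minimum to 1.5.

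Every remodeler with an adjusted p under 0.05 is named, with TERT, MYC, HELLS and up to 4 members of each further list called at 2-fold. SMARCA1, BAZ2B, H2AZ1 and the uncalled remodelers given with array values were chosen after their values were seen. Members and lists were chosen with earlier results of these data known.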

Additional observations from a re-analysis of the deposited data

How the results depend on the processing

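Of 787 results of 61 gene comparisons under the alternatives, 674 kept their call at the adjusted p and 113 lost it. None reversed its direction, but this was largely fixed in advance. The replicate block, the other prior, the filter on dim genes and the removal of an array outside the comparison leave the change itself as it was. Most of these genes were also named because they passed the test in these data. Leaving out 1 array at a time gave 5 to 12 remodelers past the adjusted p in BJEL against BJ (11 with all arrays), 11 to 20 in BJELM against BJ (22) and 2 to 4 in BJELM against BJEL (5), with 4 to 5 at 2-fold in BJELM against BJ. The BJ arrays mattered most for BJELM against BJ, with 11 without BJ replicate 1 and 13 without BJ replicate 2, and 14 without BJELM replicate 2. In BJEL against BJ the count was 5 and 7 without BJ replicates 1 and 2, and 5 and 6 without BJEL replicates 1 and 2. In BJELM against BJEL it was 2 without either BJEL array and 3 without BJELM replicate 2. Over all genes, too, fewer passed in every fit that left out an array of the comparison. With 1 array left out, median changes of the remodelers ranged from 0.185 to 0.266, from 0.231 to 0.315, and from -0.075 to 0.016. Quantile normalization moved the median to 0.176 in BJEL against BJ and to 0.036 in BJELM against BJEL. A fold minimum of 1.5 gave 8, 10 and 4 remodelers in the 3 comparisons taken in the same order, in place of 0, 5 and 0. The share of all genes past that minimum was not counted, nor that for the test named next. The methods' test for unequal variances, after adjustment, called 0 remodelers in each comparison, with or without the fold minimum, and unadjusted it called 3 at 2-fold and 12 without a fold minimum in BJELM against BJ. The labels name no batch or pairing behind the replicate numbers, so the fit has no block, although the difference of replicate 1 from 2 correlated across genes between the cell lines, at 0.448 to 0.553. What same-numbered arrays share is not stated. With the numbers as a replicate block, 18, 25 and 15 remodelers passed the adjusted p, with the same counts at 2-fold. Those gained were ARID1A, BAZ2A, CHD8, INO80, PHF10, RUVBL2 (adjusted p = 0.0031) and SMARCD3 (adjusted p = 0.0042) in BJEL against BJ, CHD6, CHD8 and EP400 in BJELM against BJ, and ARID1A (adjusted p = 0.00442), BAZ2A, CHD6, CHD9, DPF3, EP400, RUVBL2, SMARCB1, SMARCC1 and SMARCD3 in BJELM against BJEL. Over all genes that block raised the calls at the adjusted p from 3228 to 5793 in BJEL against BJ, from 5195 to 7298 in BJELM against BJ, and from 1992 to 4484 in BJELM against BJEL. Results at low signal, such as CHD7 and CHD5, are limited by the array background, which the table does not give.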

Other observations

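SMARCD2, the listed gene that was not analysed with the others, shares probe set 8017460 with PTCRA, a T cell receptor component. The probe set was measured at 8.51 and 8.39 in BJ, 8.29 and 8.18 in BJEL, and 8.81 and 8.67 in BJELM. The BJELM arrays were the highest and the BJEL arrays the lowest, with no overlap, and the signal cannot be assigned to either gene.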
